A study of Homo sapiens with 12 samples.

Results

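The clustered replication-dependent histone genes encode the linker histone H1 and the core histones H2A, H2B, H3 and H4 that package newly copied DNA. They were taken as all measured genes whose symbols name a numbered member of the H1, H2A, H2B, H3 or H4 gene clusters, and 36 of the 25049 genes counted met that rule. The 36 comprised 3 H1, 8 H2A, 12 H2B, 6 H3 and 7 H4 genes, with 30 on chromosome 6, 5 on chromosome 1 and 1 (H4C16) on chromosome 12. A further 33 of the 69 genes with such symbols were not analysed here.

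All samples were cultures of the bone-tropic MDA-MB-231b line, a derivative of the human triple-negative breast cancer line MDA-MB-231 recovered from bone marrow of athymic nude mice after intratibial and then intracardiac injection. Every culture carried lentivirally delivered CRISPR-Cas9, with a guide against GLI2 (GLI2 KO) or a non-targeted guide (WT), and the labels do not say whether either genotype is a pool or a clone. The 4 groups of 3 samples were GLI2 KO with 50 nM paclitaxel for 2 days, GLI2 KO with DMSO for 2 days, WT with 50 nM paclitaxel for 2 days and WT with DMSO for 2 days. GLI2 encodes a transcription factor of the hedgehog pathway, and paclitaxel is a taxane that stabilises microtubules and disturbs mitosis.

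Most histone messenger RNA is made during S phase and, unlike other messenger RNA, ends in a conserved stem-loop and has no poly(A) tail. The stem-loop is bound by SLBP, and the transcript is cut just after it by a complex that contains the U7 small nuclear ribonucleoprotein. A minority of transcripts of these genes are instead cleaved and polyadenylated further downstream, and such forms are known from cells that have left the cycle. The RNA here is labelled as poly(A) RNA, so the counts describe chiefly polyadenylated histone transcripts and do not measure the stem-loop-ended pool or histone protein.

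The stem-loop was looked for in the GENCODE 29 transcripts (GRCh38) because it shows which gene models run past the usual end of the message. Of the 36 members, 16 had a transcript with the stem-loop, in 5 forms. The most frequent form was in 8 members, that of H4C8 in 4, and that of H2BC4 and H2BC5 in 2. The remaining forms, those of H2AC11 and H4C14, were in 1 member each. The model went on for 6 to 1761 bases after the loop, and for 1729 bases in H2BC21, 1128 in H2AC6, 1655 in H4C8 and 116 in H2BC4. The other 20 members had no transcript with a match to the stem-loop, and 18 of them had models with a single exon. One example or more of each form is shown, with the 16 letters of the stem-loop in capitals.
H2BC21 (chr1:149886183-149886208, minus strand): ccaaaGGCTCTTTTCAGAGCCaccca
H2BC4 (chr6:26123467-26123492, minus strand): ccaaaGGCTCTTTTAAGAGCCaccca
H2AC6 (chr6:26124664-26124689, plus strand): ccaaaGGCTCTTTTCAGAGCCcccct
H2AC11 (chr6:27133510-27133535, plus strand): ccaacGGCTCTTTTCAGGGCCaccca
H4C8 (chr6:26285126-26285151, minus strand): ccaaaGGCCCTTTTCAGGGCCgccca
H4C14 (chr1:149833027-149833052, plus strand): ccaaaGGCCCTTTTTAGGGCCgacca

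Promoters, from 250 bases before to 50 bases after the start in RefSeq (GRCh38.p14), were found for 33 of the 36 members. The octamer ATTTGCAT, the motif of the factor POU2F1, was present on either strand in 9 of 12 H2B and 5 of 7 H2A promoters and in 0 of 3 H1, 0 of 5 H3 and 0 of 6 H4 promoters, against 1.77% of all 35116 promoters. CCAAT was in 27 of 33, with 0 of the 6 H4 promoters among them (34.6% of all promoters), and TATAAA was in 25 of 33 (11.5% of all). The H1 box AAACACA was in 3 of 3 H1 promoters (5.64% of all). These are matches of letters on either strand, not shown binding sites. The promoters of H2BC21, which had the largest rise in WT cells among members that reached 5 CPM, of H2BC4, which shares its start region with H2AC6, and of H1-2, the H1 gene with the most counts, are shown with these motifs in capitals, on whichever strand they lie.
H2BC21 (chr1:149886633-149886932, minus strand): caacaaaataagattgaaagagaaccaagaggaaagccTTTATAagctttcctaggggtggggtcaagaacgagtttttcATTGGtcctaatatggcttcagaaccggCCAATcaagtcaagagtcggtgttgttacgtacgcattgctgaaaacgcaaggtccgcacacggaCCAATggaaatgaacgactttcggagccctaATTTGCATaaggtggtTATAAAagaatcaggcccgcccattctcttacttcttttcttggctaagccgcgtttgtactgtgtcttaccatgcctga
H2BC4 (chr6:26123877-26124176, minus strand): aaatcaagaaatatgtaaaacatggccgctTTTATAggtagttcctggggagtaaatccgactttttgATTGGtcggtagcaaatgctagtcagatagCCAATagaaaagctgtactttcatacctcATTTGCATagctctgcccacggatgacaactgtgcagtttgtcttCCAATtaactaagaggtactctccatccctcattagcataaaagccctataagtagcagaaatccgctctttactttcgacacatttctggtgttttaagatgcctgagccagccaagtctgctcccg
H1-2 (chr6:26056421-26056720, minus strand): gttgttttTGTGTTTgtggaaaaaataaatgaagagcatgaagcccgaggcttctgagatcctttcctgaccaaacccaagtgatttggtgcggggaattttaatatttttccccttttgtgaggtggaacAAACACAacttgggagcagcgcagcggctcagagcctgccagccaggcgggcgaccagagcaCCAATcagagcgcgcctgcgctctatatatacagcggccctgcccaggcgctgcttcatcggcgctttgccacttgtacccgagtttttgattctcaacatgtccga

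Totals ran from 83230948 to 109018776 counts per sample, and the 36 members took 0.00243% to 0.0337% of them (2099 to 32208 counts). Transcripts of the targeted gene were still counted in the knockout: GLI2 had 3.97, 4.14 and 4.39 CPM (counts scaled to library size by the TMM method) in GLI2 KO cells with paclitaxel and 9.28, 8.23 and 10.1 CPM in GLI2 KO cells with DMSO, against 6.42, 5.64 and 4.97 CPM in WT cells with paclitaxel and 10.4, 11.4 and 10.6 CPM in WT cells with DMSO. The log2 difference between GLI2 KO and WT cells was -0.44 ± 0.09 with paclitaxel (adjusted p = 0.000243 by edgeR) and -0.23 ± 0.08 with DMSO (adjusted p = 0.0253 by edgeR). A count over the whole gene does not show whether the guide cut it. All 6 markers of the line were present (summed 3987 to 5936 CPM). Of the markers of other cells, 3 of 6 haematopoietic genes were in the table. Their summed level was 1.40 to 2.0 CPM in GLI2 KO cells with paclitaxel and 0.256 to 0.431 CPM with DMSO, and 0.878 to 1.05 CPM in WT cells with paclitaxel and 0.106 to 0.135 CPM with DMSO. The 4 endothelial genes summed to 2.21 to 2.27 CPM in GLI2 KO cells with paclitaxel and 1.08 to 1.41 CPM with DMSO, and to 1.54 to 1.63 CPM in WT cells with paclitaxel and 0.428 to 0.763 CPM with DMSO. The 5 of 6 osteoblast and stroma genes in the table summed to 95.2 to 102 CPM in GLI2 KO cells with paclitaxel and 69.2 to 71.8 CPM with DMSO, and to 94.2 to 98.5 CPM in WT cells with paclitaxel and 71.6 to 77.3 CPM with DMSO. No gene of these lists in the table was at 0 in all samples. The part of these genes in the histone results was not tested. PGR, whose low level helps define triple-negative cells, had 0.716 to 0.953 CPM and 2.18 to 2.98 CPM in GLI2 KO cells with paclitaxel and with DMSO and at most 0.0113 CPM in WT cells. Of the other receptors that define such cells, ESR1 was not among the genes counted. ERBB2 had 49.5 to 49.8 CPM and 53.9 to 58.1 CPM in GLI2 KO cells with paclitaxel and with DMSO. Its WT levels were 43.8 to 46.8 CPM and 56.8 to 58.4 CPM. ERBB2 was not called between genotypes with DMSO, and with paclitaxel it was higher in GLI2 KO cells (log2 difference 0.13 ± 0.03). GLI2 KO DMSO replicate 3, GLI2 KO paclitaxel replicate 3 and WT DMSO replicate 2 stood apart from their groups (chi-square per degree of freedom 6.40 to 14.2 against their fellow replicates, and 2.67 to 4.45 among the others). The WT samples carry library numbers 1 to 6 and the GLI2 KO samples 7 to 12, so genotype and library numbering cannot be told apart.

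Histone transcripts were scarce in DMSO and more abundant with paclitaxel in both genotypes. Summed over the 36 members, GLI2 KO cells had 123, 131 and 143 CPM with paclitaxel and 40.2, 38.8 and 39.6 CPM with DMSO. The same sum was 248, 249 and 318 CPM in WT cells with paclitaxel and 29.1, 25.6 and 27.1 CPM in WT cells with DMSO. The paclitaxel and DMSO samples did not overlap in either genotype, and the ratio of the means was 3.35 in GLI2 KO cells and 9.96 in WT cells. In a bulk sample, more cells with a given transcript and more of the transcript per cell cannot be told apart, and every level is relative to the other transcripts of the sample.

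The counts were concentrated in a few genes. H1-2, H2BC12, H2AC6, H2BC5 and H2BC21 together held 78.9% of the members' counts in GLI2 KO cells with paclitaxel, 77.8% in GLI2 KO cells with DMSO, 80.4% in WT cells with paclitaxel and 73.4% in WT cells with DMSO. A mean of 5 CPM or more in some group was reached by 9 members, 6 others reached 1 CPM, and 21 stayed under 1 CPM in every group. Copies of these genes are nearly identical in sequence, so reads may be shared among them and single low members are uncertain.

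**Figure D1:**
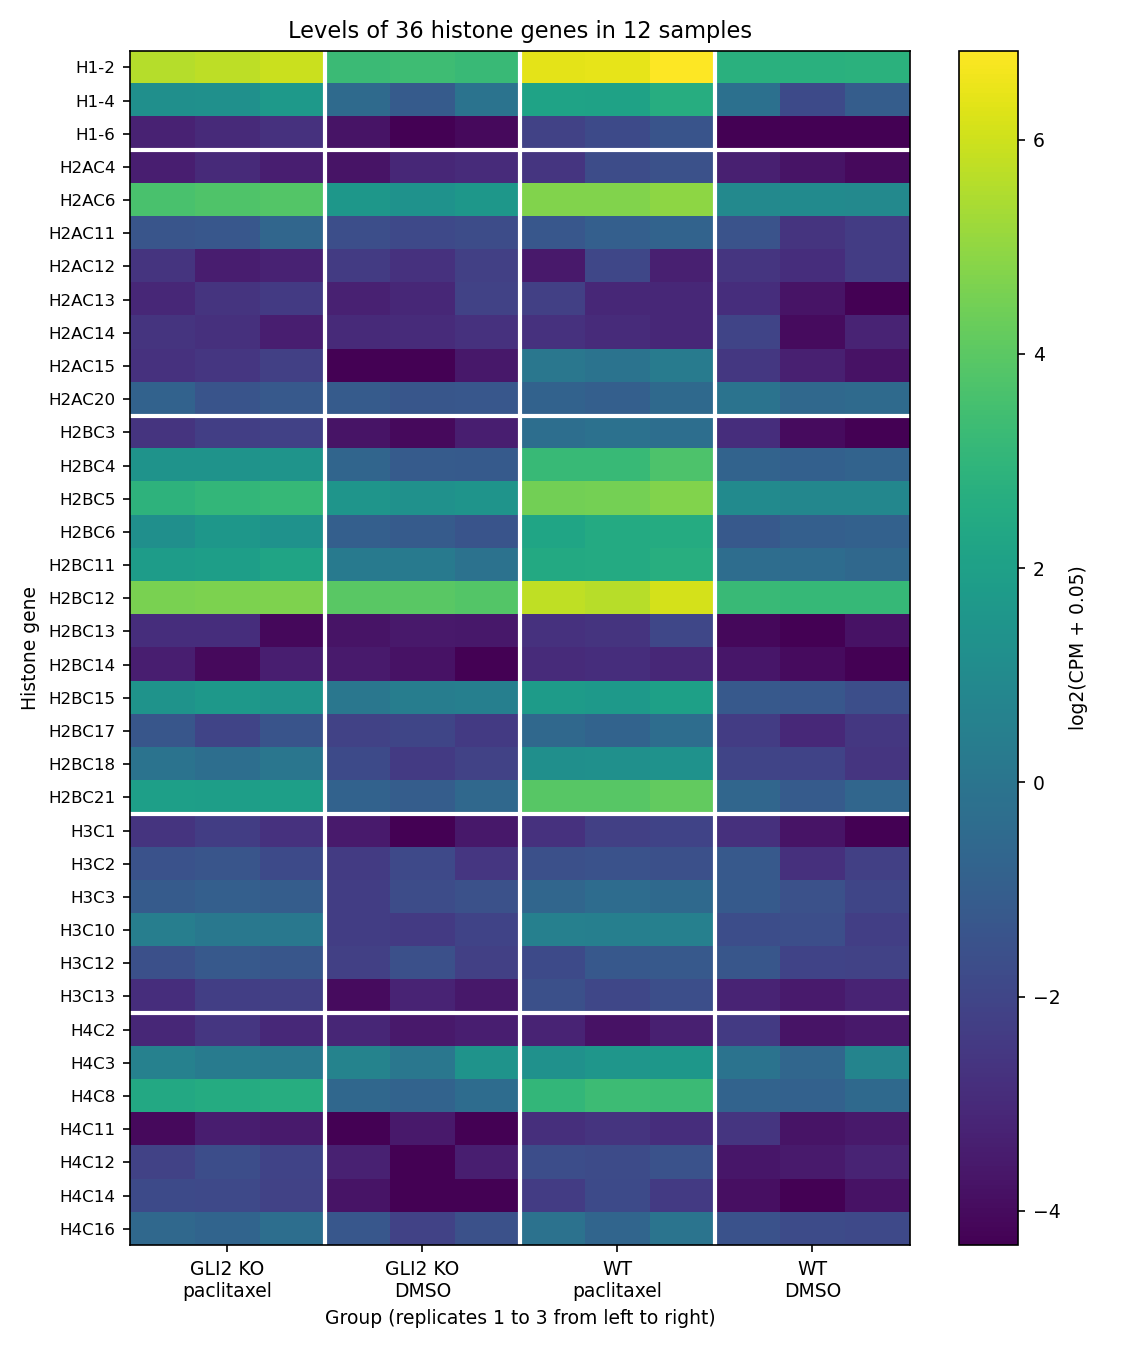
Levels of the 36 histone genes (rows, ordered by class H1, H2A, H2B, H3 and H4) in the 12 samples (columns, by group), as log2(CPM + 0.05). H1-2 and H2BC12 are the brightest rows in every group, and most rows are brighter in both paclitaxel blocks than in the DMSO block beside them.

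Paclitaxel raised most of the tested histone genes in both genotypes and lowered none at the threshold used. Calls rest on quasi-likelihood F tests in edgeR with Benjamini-Hochberg adjustment over all 21974 genes tested, with a call below 0.05. Of 31 members with enough counts to be tested, 24 were higher with paclitaxel in GLI2 KO cells, where 33% of all tested genes were called higher. The other 7 did not pass, and the median log2 fold change was 1.95 over the members and 0.02 over all tested genes. In WT cells 26 of 31 were higher with paclitaxel, with 34.6% of all tested genes called higher, and the medians were 2.86 over the members and 0.03 over all tested genes. No member was called lower in either genotype, where 32.2% of all tested genes in GLI2 KO cells and 32.1% in WT cells were. At an unadjusted p below 0.05, 0 members were lower in either genotype, and DESeq2 called 0 lower in either. Without the 3 libraries that stood apart, of 33 tested members 22 were higher in GLI2 KO cells and 27 in WT cells, where H2AC20 was then called lower. Of the 31, 9 passed the filter on low counts only through the paclitaxel samples, and among the 22 that passed in DMSO samples alone 17 were higher in GLI2 KO cells and 18 in WT cells. The paclitaxel samples and the DMSO samples did not overlap for 24 tested members in GLI2 KO cells (67.2% of all tested genes) and for 26 in WT cells (71.5% of all tested genes). The 5 untested members were H2AC14, H2BC13, H2BC14, H4C2 and H4C11.

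**Figure D2:**
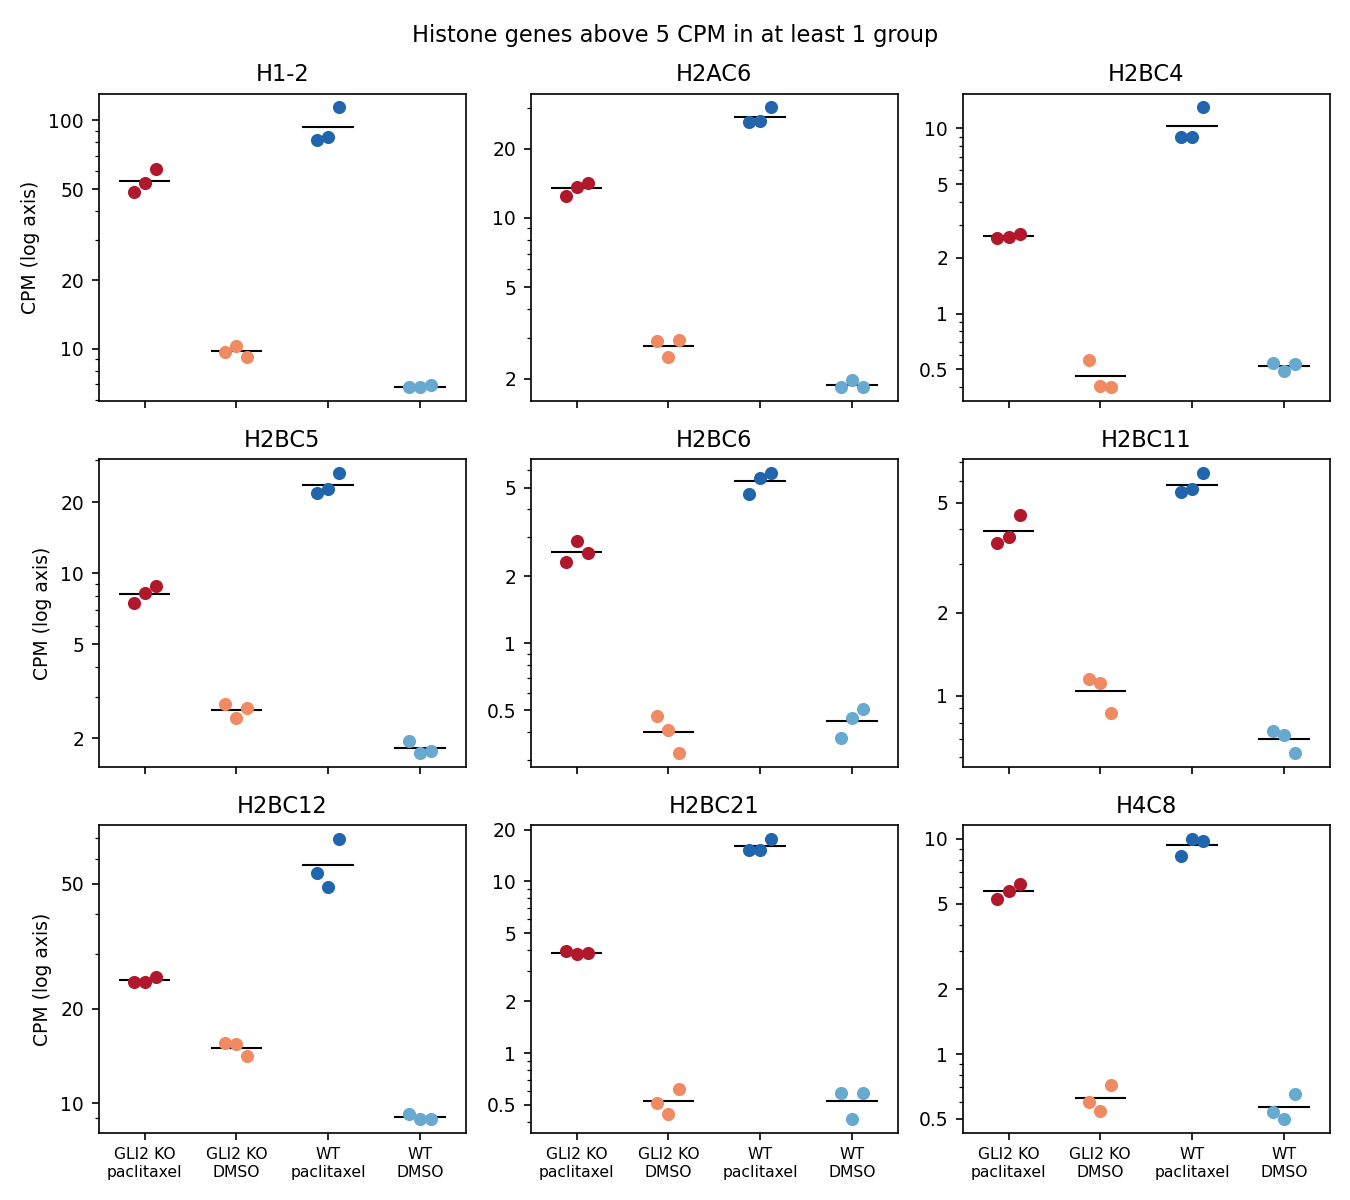
Level of the 9 histone genes whose mean reached 5 CPM in some group, as CPM on log axes. Points are samples and lines are group means (n = 3), and in each of the 9 panels the paclitaxel samples lie above the DMSO samples of the same genotype without overlap.

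Linker histone H1 binds DNA where it enters and leaves the nucleosome. H1-2 had 48.5, 53.1 and 61.1 CPM in GLI2 KO cells with paclitaxel, against 9.71, 10.3 and 9.24 CPM with DMSO (log2 fold change 2.48 ± 0.15, where ± is the standard error, adjusted p = 6.42e-07 by edgeR). It had 81.9, 84.3 and 114 CPM in WT cells with paclitaxel, against 6.80, 6.80 and 6.93 CPM with DMSO (3.77 ± 0.16, adjusted p = 3.86e-08 by edgeR). The paclitaxel samples lay far above the DMSO samples in both genotypes, and WT paclitaxel replicate 3 was the highest. H1-4, another somatic linker histone gene, rose at lower levels, to 2.29, 2.35 and 3.23 CPM in GLI2 KO cells with paclitaxel, against 0.666, 0.408 and 0.900 CPM with DMSO (2.0 ± 0.37). In WT cells H1-4 had 4.35, 4.27 and 6.20 CPM with paclitaxel, against 0.821, 0.232 and 0.440 CPM with DMSO (3.26 ± 0.37). H1-6, the testis-specific linker histone gene, had 70 counts over the 3 WT paclitaxel samples and 0 over the 3 WT DMSO samples. The lower 95% counting limit of that ratio is 20.1, and with a floor of 3 counts in place of 0 the ratio is 25.4. In GLI2 KO cells H1-6 had 23 counts with paclitaxel and 3 with DMSO, a ratio of 7.57 with a 95% counting interval of 2.29 to 39.4.

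H2B pairs with H2A in the nucleosome, and all 10 tested H2B genes were higher with paclitaxel in both genotypes. One of them, H2BC3, passed the filter on low counts only with the paclitaxel samples. In GLI2 KO cells the samples of H2BC17 overlapped (0.74 ± 0.31, adjusted p = 0.0386 by edgeR), and its call was lost under 6 of 20 alternatives, with adjusted p of 0.0651 to 0.285 and 0.0689 by DESeq2. H2BC21, on chromosome 1, had the largest rise in WT cells among members that reached 5 CPM, whereas in GLI2 KO cells that of H4C8 was larger. H2BC21 had 3.92, 3.79 and 3.83 CPM in GLI2 KO cells with paclitaxel, against 0.513, 0.442 and 0.622 CPM with DMSO (log2 fold change 2.87 ± 0.13, adjusted p = 1.22e-15 by edgeR). Its levels were 15.2, 15.3 and 17.6 CPM in WT cells with paclitaxel, against 0.589, 0.415 and 0.587 CPM with DMSO (4.90 ± 0.11, adjusted p = 1.13e-20 by edgeR). The DMSO levels of the genotypes overlapped, whereas the WT paclitaxel samples were all above the GLI2 KO paclitaxel samples. H2BC4, with the stem-loop form it shares with H2BC5, had 2.57, 2.58 and 2.68 CPM in GLI2 KO cells with paclitaxel, against 0.564, 0.408 and 0.400 CPM with DMSO (2.52 ± 0.18). It had 8.96, 9.02 and 13.0 CPM in WT cells with paclitaxel, against 0.541, 0.489 and 0.531 CPM with DMSO (4.31 ± 0.16).

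H2BC12 was the H2B gene with the most counts and the one whose share changed most. It had 24.3, 24.4 and 25.3 CPM in GLI2 KO cells with paclitaxel, against 15.6, 15.5 and 14.1 CPM with DMSO (log2 fold change 0.71 ± 0.12, adjusted p = 0.000509 by edgeR). In WT cells H2BC12 had 54.3, 48.8 and 69.5 CPM with paclitaxel, against 9.23, 8.93 and 8.93 CPM with DMSO (2.67 ± 0.12, adjusted p = 2.87e-08 by edgeR). Its share of all member counts was 18.6% in GLI2 KO cells with paclitaxel and 38.0% with DMSO, and 21.2% in WT cells with paclitaxel and 33.0% with DMSO. H1-2 went the other way, with 41.1% in GLI2 KO cells with paclitaxel and 24.7% with DMSO, and 34.4% in WT cells with paclitaxel and 25.0% with DMSO. Per kilobase of GENCODE 29 exon model, H2BC12 was at 64.8 CPM and H1-2 at 84.5 CPM in GLI2 KO cells with paclitaxel, and at 39.5 and 15.2 CPM with DMSO. The same values in WT cells were 151 CPM for H2BC12 and 145 CPM for H1-2 with paclitaxel, and 23.7 and 10.7 CPM with DMSO. The GENCODE 29 models of H2BC12 and H1-2 each hold a single exon without a match to the stem-loop.

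H2BC5 had 7.44, 8.23 and 8.86 CPM in GLI2 KO cells with paclitaxel, against 2.79, 2.44 and 2.70 CPM with DMSO (log2 fold change 1.63 ± 0.09). In WT cells the H2BC5 levels were 21.9, 22.7 and 26.5 CPM with paclitaxel, against 1.95, 1.73 and 1.76 CPM with DMSO (3.70 ± 0.09). H2BC6 had 2.31, 2.90 and 2.55 CPM against 0.474, 0.408 and 0.322 CPM in GLI2 KO cells with paclitaxel and with DMSO (2.69 ± 0.16). The same gene had 4.71, 5.56 and 5.81 CPM against 0.377, 0.464 and 0.508 CPM in WT cells with paclitaxel and with DMSO (3.58 ± 0.14). Of the H2BC6 exon bases, 28.2% lie opposite an antisense gene, and the use of strand in counting is not stated. H2BC11 had 3.58, 3.75 and 4.52 CPM with paclitaxel, against 1.15, 1.11 and 0.866 CPM with DMSO in GLI2 KO cells (1.93 ± 0.13). In WT cells H2BC11 had 5.46, 5.58 and 6.38 CPM with paclitaxel, against 0.744, 0.721 and 0.621 CPM with DMSO (3.06 ± 0.13). Among the scarcer H2B genes, H2BC3 had 0.111, 0.162 and 0.172 CPM in GLI2 KO cells with paclitaxel, against 0.0256, 0.0113 and 0.0444 CPM with DMSO (2.40 ± 0.60). H2BC3 had 0.768, 0.843 and 0.770 CPM in WT cells with paclitaxel, against 0.0869, 0.0122 and 0 CPM with DMSO (4.40 ± 0.43). For each of H2BC5, H2BC6, H2BC11 and H2BC3 the paclitaxel and DMSO samples did not overlap in either genotype.

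The H2A genes were mixed. Of the 7 tested, 3 were higher with paclitaxel in GLI2 KO cells and 4 in WT cells, and the others did not pass. H2AC4, H2AC13 and H2AC15 were tested only because of their counts in the paclitaxel samples. H2AC6 had 12.5, 13.6 and 14.2 CPM in GLI2 KO cells with paclitaxel, against 2.92, 2.48 and 2.93 CPM with DMSO (log2 fold change 2.28 ± 0.08, adjusted p = 1.35e-17 by edgeR). Its levels were 26.0, 26.5 and 30.2 CPM in WT cells with paclitaxel, against 1.83, 1.97 and 1.84 CPM with DMSO (3.88 ± 0.08, adjusted p = 2.57e-21 by edgeR). H2AC6 alone therefore made up most of the H2A sum. H2AC20, the H2A neighbour of H2BC21, had 0.521, 0.323 and 0.381 CPM in GLI2 KO cells with paclitaxel, against 0.410, 0.340 and 0.355 CPM with DMSO (0.15 ± 0.24, not called). In WT cells H2AC20 had 0.520, 0.477 and 0.651 CPM with paclitaxel, against 0.888, 0.623 and 0.677 CPM with DMSO (-0.41 ± 0.21, adjusted p = 0.0815 by edgeR). Those groups overlapped, and without WT paclitaxel replicate 3 the adjusted p was 0.0466, for a lower level. In GLI2 KO cells H2AC4 was not called, with 0.0443, 0.0754 and 0.0453 CPM with paclitaxel against 0.0256, 0.0680 and 0.0777 CPM with DMSO (-0.09 ± 0.61). H2AC4 was called higher in WT cells, at 0.113, 0.255 and 0.286 CPM with paclitaxel against 0.0483, 0.0244 and 0.0113 CPM with DMSO (2.86 ± 0.55). All exon bases of H2AC15 lie within H2BC15 on the opposite strand, so its reads cannot be assigned with certainty. H2AC15 had 38 counts with paclitaxel and 3 with DMSO in GLI2 KO cells (ratio 12.5, 95% counting interval 3.97 to 63.3). In WT cells H2AC15 had 1.02, 0.909 and 1.2 CPM with paclitaxel, against 0.126, 0.0489 and 0.0226 CPM with DMSO (3.90 ± 0.36).

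H3 and H4 form the central tetramer of the nucleosome, and their genes stayed at low levels apart from H4C8. H4C8 had 5.24, 5.73 and 6.15 CPM in GLI2 KO cells with paclitaxel, against 0.602, 0.544 and 0.722 CPM with DMSO (log2 fold change 3.19 ± 0.12, adjusted p = 1.04e-16 by edgeR). It had 8.34, 9.99 and 9.79 CPM in WT cells with paclitaxel, against 0.541, 0.501 and 0.655 CPM with DMSO (4.05 ± 0.12, adjusted p = 1.75e-18 by edgeR). Of 5 tested H4 genes, 4 were higher in GLI2 KO cells and 5 in WT cells. Of those called in both, H4C12 and H4C14 passed the filter on low counts only with the paclitaxel samples. The H4 gene that was not called in GLI2 KO cells, H4C3, had 1.46, 1.21 and 1.09 CPM with paclitaxel, against 1.55, 1.02 and 2.61 CPM with DMSO, and these groups overlapped. In WT cells H4C3 had 2.44, 2.82 and 2.98 CPM with paclitaxel, against 0.888, 0.586 and 1.57 CPM with DMSO (1.43 ± 0.38, adjusted p = 0.00807 by edgeR). H4C14 had 62 counts with paclitaxel and 2 with DMSO in GLI2 KO cells, a ratio of 30.6 with a wide 95% counting interval of 8.13 to 258. Of 6 tested H3 genes, 4 were higher in each genotype, and H3C10 had the most counts of them with paclitaxel. Of those called, H3C1 and H3C13 passed the filter on low counts only with the paclitaxel samples. H3C10, named after its values were seen as was H4C3, had 1.30, 1.07 and 1.04 CPM in GLI2 KO cells with paclitaxel, against 0.154, 0.136 and 0.189 CPM with DMSO (2.81 ± 0.22). Its levels in WT cells were 1.38, 1.36 and 1.39 CPM with paclitaxel, against 0.261, 0.269 and 0.158 CPM with DMSO (2.58 ± 0.20), close to those of the GLI2 KO cells.

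**Figure D3:**
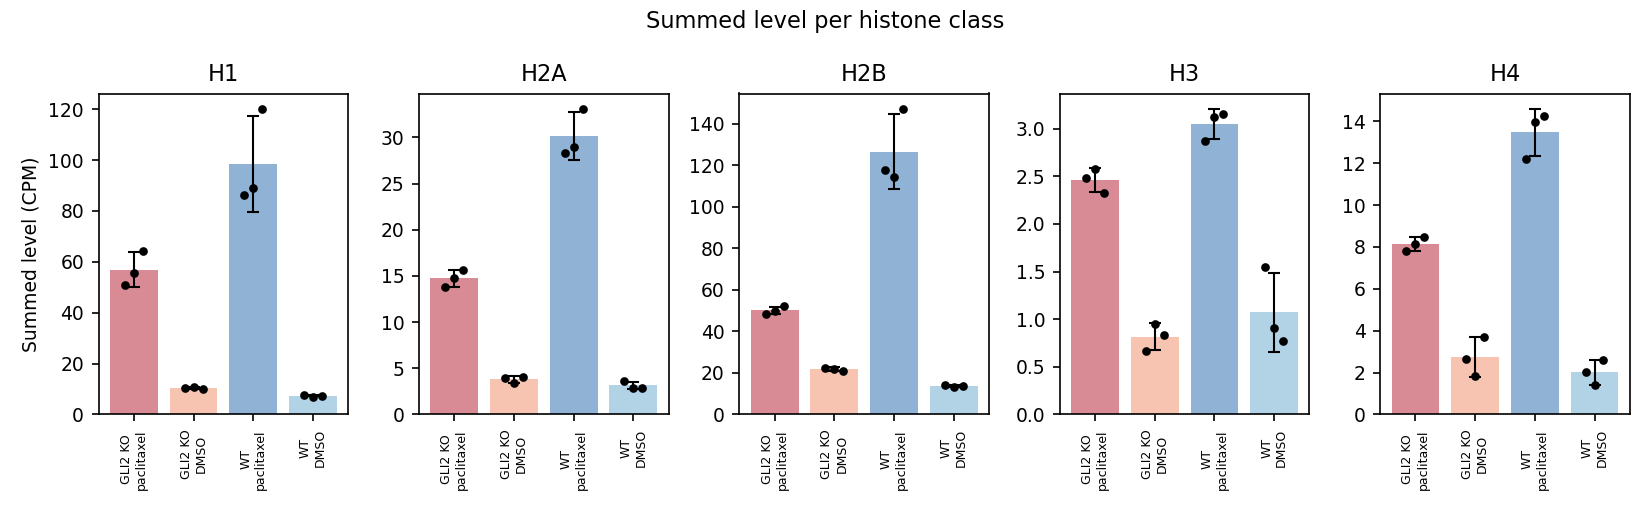
Summed level of the members of each histone class, in CPM. Bars are means, whiskers the SD and points the samples (n = 3 per group), and for H2B the means are 50.0 and 21.8 CPM in GLI2 KO cells with paclitaxel and with DMSO and 126 and 13.7 CPM in WT cells.

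By class, the H2B sum showed the widest difference between genotypes. It was 50.0 ± 1.90 CPM in GLI2 KO cells with paclitaxel and 21.8 ± 0.916 CPM with DMSO (SD, n = 3), and 126 ± 18.1 CPM in WT cells with paclitaxel and 13.7 ± 0.494 CPM with DMSO. The H3 sum was at 2.46 ± 0.125 CPM in GLI2 KO cells with paclitaxel and 0.817 ± 0.144 CPM with DMSO, and at 3.05 ± 0.158 CPM in WT cells with paclitaxel and 1.07 ± 0.415 CPM with DMSO. The paclitaxel to DMSO ratio of the sums was 5.46 in GLI2 KO cells and 13.4 in WT cells for H1, 3.89 and 9.62 for H2A, 2.30 and 9.22 for H2B, 3.01 and 2.85 for H3, and 2.99 and 6.70 for H4. These ratios describe the sums and carry no test.

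With DMSO, few members differed between GLI2 KO and WT cells. Of 31 tested, 6 were higher in GLI2 KO cells (22% of all tested genes were called higher) and 2 were lower (19.6% called lower), with a median log2 fold change of 0.13. The share higher was near that of all tested genes and the share lower was under it, and the groups did not overlap for 7 members (48.6% of all tested genes). Without the 3 libraries that stood apart 5 were higher and 2 lower. The largest rise among those called was that of H2BC15, with 1.02, 1.26 and 1.37 CPM in GLI2 KO cells against 0.386, 0.354 and 0.271 CPM in WT cells (1.85 ± 0.18, adjusted p = 3.92e-09 by edgeR). H2BC12 (0.74 ± 0.13), H2BC11 (0.58 ± 0.16), H2AC6 (0.56 ± 0.10), H2BC5 (0.53 ± 0.11) and H1-2 (0.51 ± 0.18) were also higher in GLI2 KO cells, without overlap of the samples. The H1-2 call had an adjusted p of 0.0493 by edgeR and was lost under 13 of 20 alternatives. H2AC20 was lower in GLI2 KO cells, at the levels given above (-1.0 ± 0.22, adjusted p = 0.000701 by edgeR). H2AC15, with 3 counts in GLI2 KO cells and 19 in WT cells (ratio 0.166, 95% counting interval 0.0314 to 0.563), was called lower, and the call was lost without WT DMSO replicate 1 (adjusted p = 0.266 by edgeR), without GLI2 KO DMSO replicate 1 (0.0833) or without GLI2 KO DMSO replicate 2 (0.0961).

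With paclitaxel, 19 of 31 tested members were lower in GLI2 KO than in WT cells, and 22.2% of all tested genes were called lower. None was called higher (23.4% of all tested genes were), 0 were higher at an unadjusted p below 0.05 or by DESeq2, and the median log2 fold change was -0.78 over the members and -0.01 over all tested genes. The genotypes did not overlap for 21 tested members (55.2% of all tested genes). All 10 tested H2B genes and all 3 H1 genes were lower, with 3 of 7 H2A, 1 of 6 H3 and 2 of 5 H4 genes. Of those called lower, H1-6 and H2AC4 passed the filter on low counts only through the WT paclitaxel samples, where they are high. Among the 22 members that passed in DMSO samples alone, 15 were lower and 7 were not called. Of 20 alternatives, the call of H1-4 was lost under 4 (adjusted p = 0.0738 by DESeq2), that of H3C3, the H3 gene, under 9 and that of H4C3 under 6. H2AC15, whose reads overlap H2BC15, had 0.0997, 0.119 and 0.163 CPM in GLI2 KO cells against 1.02, 0.909 and 1.2 CPM in WT cells (-3.01 ± 0.32). H2BC3 (-2.40 ± 0.33), H2BC21 (-2.06 ± 0.08, adjusted p = 3.87e-16 by edgeR), H2BC4 (-1.98 ± 0.12) and H2BC5 (-1.53 ± 0.07) were lower in GLI2 KO cells at the levels given above. Without the 3 libraries that stood apart, 18 members were lower. H2BC12 (-1.22 ± 0.11), H2AC6 (-1.04 ± 0.06), H1-2 (-0.78 ± 0.13) and H4C8 (-0.71 ± 0.09) were lower too, and in each the 3 GLI2 KO samples lay below the 3 WT samples. H3C10 was not called (-0.28 ± 0.15, adjusted p = 0.139 by edgeR). H2BC15 had 2.59, 3.01 and 2.66 CPM in GLI2 KO cells and 3.46, 3.22 and 3.99 CPM in WT cells with paclitaxel (-0.37 ± 0.11), a call lost without WT paclitaxel replicate 3 (adjusted p = 0.0856).

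The paclitaxel effect itself was tested for a difference between genotypes, as the GLI2 KO effect minus the WT effect in the same fit. It was smaller in GLI2 KO cells for 13 of 31 tested members, where 6.93% of all tested genes were called in that direction, and larger for 0 (6.56% of all tested genes, and 0 members at an unadjusted p below 0.05). DESeq2 tested only 17 members for this difference, and called 12 smaller and 0 larger. The fitted difference was below 0 for 25 of the 31, with a median of -1.13 on the log2 scale over the members and -0.02 over all tested genes. H2B genes made up 9 of the 13, and 9 of 10 tested H2B genes were called, against 1 of 3 H1, 2 of 7 H2A, 0 of 6 H3 and 1 of 5 H4 genes. Whether classes differ in this was not tested. Among the called members H2AC4 (-2.95 ± 0.86, adjusted p = 0.0229 by edgeR), H2BC15 (-2.22 ± 0.21), H2BC5 (-2.07 ± 0.13), H2BC21 (-2.04 ± 0.20), H2BC12 (-1.96 ± 0.17) and H2BC4 (-1.78 ± 0.28) had the largest differences. H2AC4 passed the filter on low counts only through the WT paclitaxel samples, which favours a large WT effect. Among the 22 members that passed in DMSO samples alone, 12 were called smaller and 10 were not called. H2BC3 (-2.01, adjusted p = 0.185 by edgeR) and H4C3 (-1.91, adjusted p = 0.05 by edgeR) were not called. Without the 3 libraries that stood apart 12 members were called, and H2BC4 (-1.85, adjusted p = 0.0723) and H2AC4 (-2.45, adjusted p = 0.126) were not among them. For H2BC15, H2BC12, H2BC11, H2AC6, H2BC5 and H1-2 the smaller effect goes with a DMSO level called higher in GLI2 KO cells. The remaining called members were not called between genotypes with DMSO, and for H2BC21 and H4C8 those levels overlapped. The 6 tested H3 genes had a median difference of 0.24, and H3C10 had 0.24 ± 0.32 (adjusted p = 0.705 by edgeR), an error too large to call the effects alike.

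**Figure D4:**
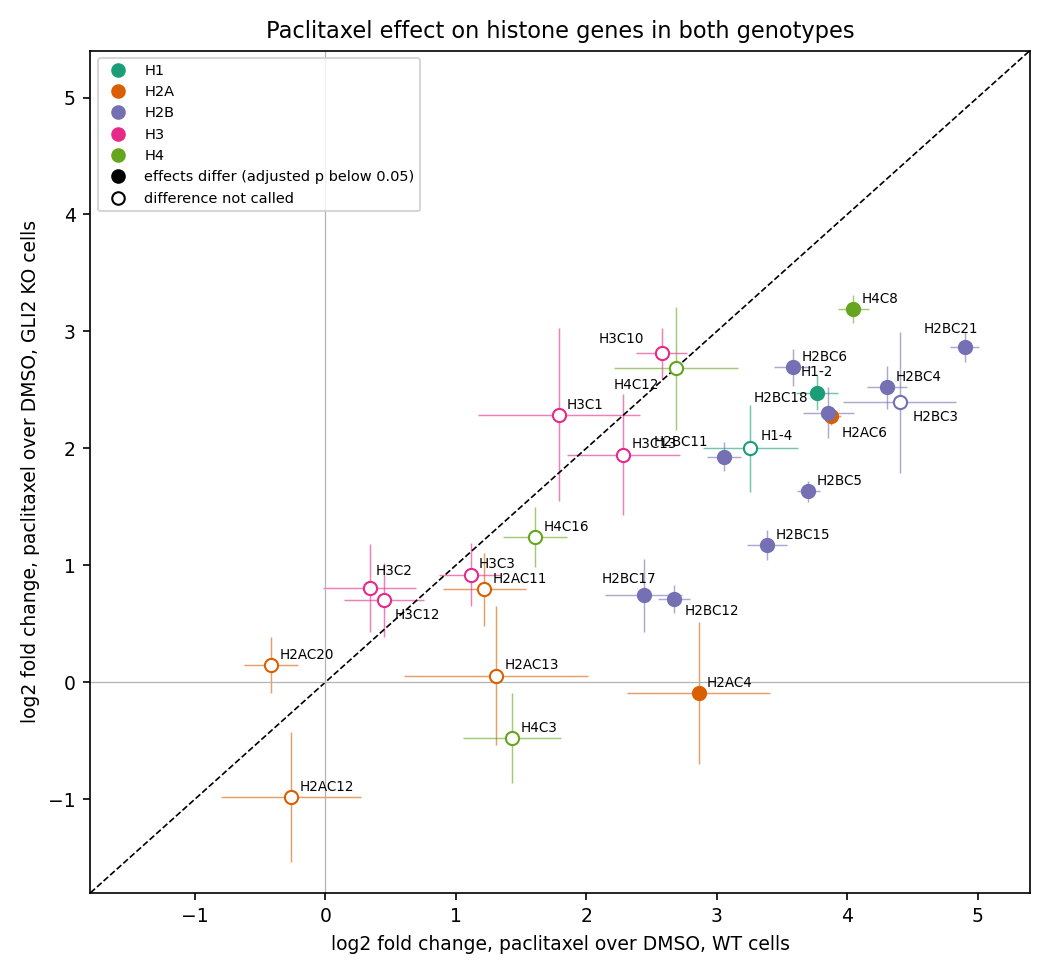
Log2 fold change of paclitaxel over DMSO in GLI2 KO cells (vertical axis) against that in WT cells (horizontal axis) for 28 tested histone genes, with standard errors as lines and the dashed line where both are equal. Filled points differ between genotypes, and all lie below the line. H1-6, H2AC15 and H4C14 are left out because a group had 3 counts or fewer.

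Neighbouring members did not always move together. Among members whose promoter was found, an H2A and an H2B gene start 194 to 248 bases apart on opposite strands in 6 pairs. They so share a promoter region, and in 4 of the 6 pairs both genes were tested. H2BC12 and H2AC12 are also divergent neighbours, but no promoter was found for H2AC12, so that pair is not among the 6. With paclitaxel H2BC12 rose, whereas H2AC12 was not called (-0.98 ± 0.56 in GLI2 KO cells and -0.26 ± 0.53 in WT cells). H2AC12 was called lower in WT cells without WT paclitaxel replicate 2 (adjusted p = 0.0416 by edgeR). These pairs were examined after their values were seen. In the pair H2BC21 and H2AC20, whose shared region is within the H2BC21 sequence printed above, the H2B gene rose and the H2A gene was not called. The log2 ratio of H2BC21 to H2AC20 changed with paclitaxel by 2.75 in GLI2 KO cells and by 5.32 in WT cells (pseudocount of 0.5 counts, exact permutation p = 0.1 in each genotype, the smallest that 3 against 3 samples allow, and 0.133 adjusted over 8 tests). In the pair H2BC4 and H2AC6 both genes rose, and the ratio changed by 0.24 in GLI2 KO cells (exact permutation p = 0.3) and 0.41 in WT cells (exact permutation p = 0.1). For H2BC11 over H2AC11 the change was 1.21 in GLI2 KO cells and 1.70 in WT cells (exact permutation p = 0.1 in each). The fourth of the 4 pairs, H2BC15 and H2AC15, overlaps, so its reads cannot be assigned with certainty. Its tests are among the 8. The ratio of H2BC15 to H2AC15 changed by -2.35 in GLI2 KO cells (exact permutation p = 0.1) and by -0.76 in WT cells (exact permutation p = 0.4). The GENCODE 29 model of H2AC20 is 390 bases long with no stem-loop, whereas that of H2BC21 is 2194 bases long, so the pair also differs in how far past the coding part reads could be counted.

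**Figure D5:**
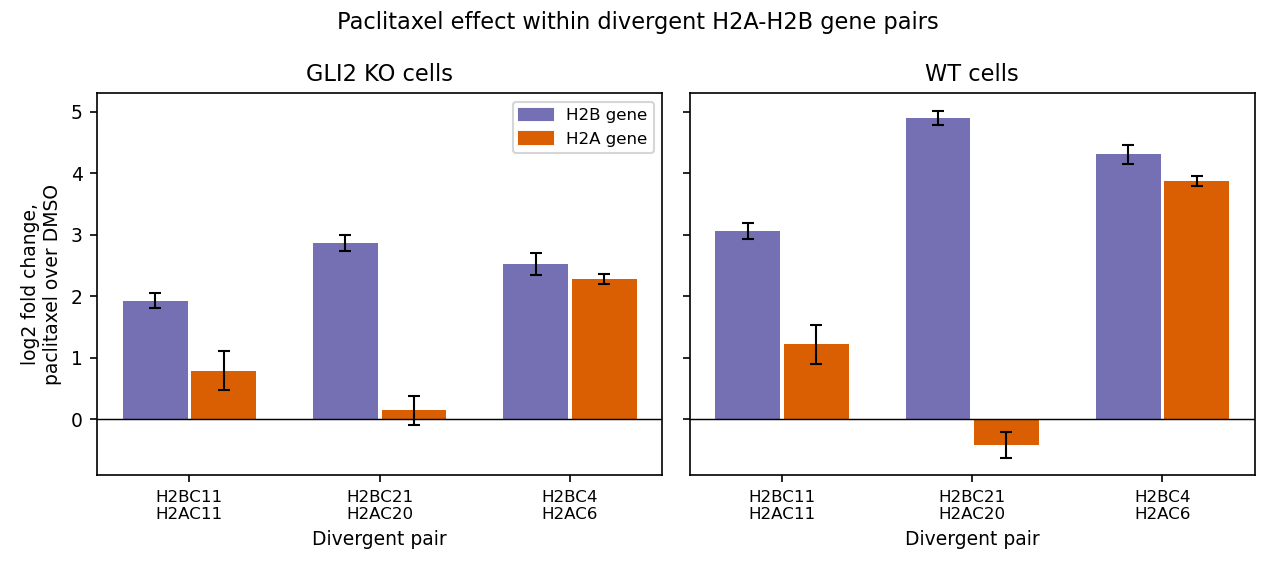
Log2 fold change of paclitaxel over DMSO for the H2B and H2A gene of 3 divergent pairs, in GLI2 KO cells (left) and WT cells (right), with standard errors as whiskers. The H2BC21 bar reaches 2.87 in GLI2 KO cells and 4.90 in WT cells, while the H2AC20 bars are 0.15 and -0.41.

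Gene models that run on downstream were compared with those that end early, as a description. A model that was spliced or went on for at least 100 bases past the loop belonged to 14 members, all tested, and 13 of them were higher with paclitaxel in each genotype, with a median log2 fold change of 2.29 in GLI2 KO cells and 3.51 in WT cells. Of the 22 members without such a model, 17 were tested, 11 were higher in GLI2 KO cells and 13 in WT cells, and the medians were 0.92 and 2.44. All but H4C14 of the 9 members that passed the filter only with the paclitaxel samples are among these 17. The calls and medians of the 14 and of the 17 are therefore not on equal terms. H1-2 and H2BC12, the members with the most counts, are among those without such a model.

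Some RNA without a poly(A) tail was also counted, and its levels are given because stem-loop-ended histone messages could be carried over with it. RN7SL1, the RNA of the signal recognition particle, had 31.4 to 63.3 CPM in GLI2 KO cells with paclitaxel and 27.4 to 47.9 CPM with DMSO, and 29.8 to 42.5 CPM in WT cells with paclitaxel and 36.9 to 57.3 CPM with DMSO. The RN7SL1 ranges with paclitaxel and with DMSO overlapped in each genotype. RMRP, another RNA without a tail, was highest in WT DMSO replicate 1 (2.51 CPM) and GLI2 KO DMSO replicate 3 (1.42 CPM). WT DMSO replicate 1 was also the highest of its group for 16 of 20 members with under 500 counts in all, against 35.1% of all tested genes. GLI2 KO DMSO replicate 3 was the highest of its group for 7 of those 20 members, against 36.4% of all tested genes. Among all 36 members, WT paclitaxel replicate 3 was the highest of its group for 24, against 35.4% of all tested genes. The part of carried-over RNA in the histone values was not tested.

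The other genes of these pathways are counted against the shares of all tested genes given above, 33% higher and 32.2% lower with paclitaxel in GLI2 KO cells and 34.6% higher and 32.1% lower in WT cells. Of 18 genes of histone pre-mRNA 3′ processing, 2 were higher and 13 lower with paclitaxel in GLI2 KO cells, and 2 higher and 12 lower in WT cells, with medians of -0.18 and -0.23. ZNF473, a zinc-finger protein of the U7 complex, was higher (0.60 ± 0.04 in each genotype), and NCBP1, a subunit of the cap-binding complex, was lower (-0.57 ± 0.03 in each). SLBP, the stem-loop binding protein, had 110, 108 and 106 CPM in GLI2 KO cells with paclitaxel and 152, 153 and 148 CPM with DMSO, against 87.3, 90 and 90.5 CPM in WT cells with paclitaxel and 106, 107 and 104 CPM with DMSO. It was higher in GLI2 KO than in WT cells under DMSO (0.51 ± 0.03) and paclitaxel (0.27 ± 0.03), and its paclitaxel effect differed between genotypes (-0.24 ± 0.04, adjusted p = 0.000388 by edgeR). Between genotypes, 6 of the 18 were higher and 5 lower in GLI2 KO cells under DMSO (22% and 19.6% of all tested genes). Under paclitaxel 3 were higher and 5 lower (23.4% and 22.2% of all tested genes). Of 13 genes of the canonical poly(A) machinery, 2 were higher and 10 lower with paclitaxel in GLI2 KO cells, and 2 higher and 7 lower in WT cells. NUDT21, a subunit of cleavage factor I, was lower (-0.80 ± 0.03 in GLI2 KO cells and -0.76 ± 0.03 in WT cells). PCF11, a cleavage factor subunit, was higher with paclitaxel in WT cells (0.69 ± 0.04), and its effect was smaller in GLI2 KO cells (difference -0.37 ± 0.05).

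Of 8 genes of histone gene transcription, 1 was higher and 7 lower with paclitaxel in GLI2 KO cells, and 1 higher and 5 lower in WT cells. CCNE1, a cyclin that activates CDK2, was lower (-1.0 ± 0.06 in GLI2 KO cells and -0.89 ± 0.06 in WT cells), as was CDK2 (-0.85 ± 0.04 and -0.69 ± 0.04). Between genotypes, 5 of the 8 were higher and 3 lower in GLI2 KO cells under DMSO (22% and 19.6% of all tested genes). Under paclitaxel 2 were higher and 5 lower (23.4% and 22.2% of all tested genes), with CCNE1 lower (-0.36 ± 0.07). NPAT, the histone-locus coactivator, and HINFP, the activator of H4 genes, were higher in GLI2 KO than in WT cells under DMSO (0.44 ± 0.03 and 0.57 ± 0.04) and under paclitaxel (0.48 ± 0.03 and 0.45 ± 0.04). All 8 S phase genes were lower with paclitaxel in both genotypes. RRM2, a subunit of ribonucleotide reductase, had a log2 fold change of -1.31 ± 0.03 in GLI2 KO cells and -1.04 ± 0.03 in WT cells. Of 10 histone chaperone genes, 10 were lower in GLI2 KO cells and 9 in WT cells, among them CHAF1B (-1.19 ± 0.04 and -0.85 ± 0.04) and ASF1B (-1.16 ± 0.05 and -0.93 ± 0.05), which bring histones to new DNA. Among 8 genes of histone mRNA translation and decay, 2 were higher and 3 lower in GLI2 KO cells, and 2 higher and 4 lower in WT cells, near those shares. TUT7, a terminal uridylyltransferase, was higher (0.51 ± 0.04 in GLI2 KO cells and 0.50 ± 0.04 in WT cells).

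The replication-independent histone genes are made outside S phase as well, mostly as polyadenylated messages. Of 14 listed, 10 were tested, and 3 were higher and 6 lower with paclitaxel in GLI2 KO cells and 3 higher and 7 lower in WT cells. H2AX, the H2A variant that is phosphorylated at DNA breaks and whose gene makes both a stem-loop-ended and a polyadenylated message, was lower (-1.11 ± 0.04 in GLI2 KO cells and -1.17 ± 0.04 in WT cells). Summed over the list the levels were 2327 to 2378 CPM in GLI2 KO cells with paclitaxel and 2277 to 2413 CPM with DMSO, and 2416 to 2470 CPM in WT cells with paclitaxel and 2267 to 2307 CPM with DMSO.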

How the data were processed

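Poly(A) RNA of 12 samples was sequenced. Per the labels' protocols, QIAzol was used to extract the RNA and qScript cDNA supermix to make the library. Trim Galore 0.6.7, DESeq2 1.36.0, STAR and the hg38 build stand in the submitters' processing notes without roles. The counting tool, annotation, strand setting and handling of reads with several matches are not stated there or in the labels, and any of them could move counts between near-identical histone genes. The authors' deposited count table holds whole-number counts for 25049 genes. Their deposited normalized table is those counts divided by a factor per sample and was not used. The number of per-sample columns not mapped to a sample was 0.

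Groups came from the sample titles. Replicates were numbered in accession order, and nothing says that they came from separate cultures, so p-values cover only the spread among the samples at hand, possibly technical. The counts were fitted in edgeR 4.0.16 (R 4.3.3) with TMM factors, filterByExpr at a minimum count of 10 (21974 genes, 87.7%), 4 group means and robust quasi-likelihood dispersions with 8 residual degrees of freedom. F tests of 5 contrasts were adjusted by Benjamini-Hochberg over all tested genes, and a gene was called below 0.05. Standard errors are approximate, the size of the log2 fold change divided by the root of F. The fit was tested on simulated data in which only genes with higher counts were changed, at a fixed spread. That test does not cover the scarce members. Where a group had 3 counts or fewer, ratios of summed counts per library total with exact binomial 95% intervals were given in place of fitted folds. They use no TMM factors, and intervals and floors cover counting error only.

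Members were matched to GENCODE 29 (36 of 36) by symbol or older symbol. That annotation may not be the one behind the counts. Promoters are from RefSeq. The members and lists were chosen with earlier results of these data known. Values per sample are given for members whose mean reached 5 CPM in a group, the 3 called members with the largest change in each contrast and up to 6 called in the difference of effects. The named list genes are among the 3 called members with the largest change per list and contrast, and other genes were named after their values were seen. A gene that this rule names is not reported here. The alternatives tried were upper-quartile and RLE factors, totals without factors, no filter, a minimum count of 50, DESeq2 1.42.0, fits on the groups compared, leaving out each replicate and, chosen after seeing the data, leaving out the 3 libraries that stood apart.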

Additional observations from a re-analysis of the deposited data

Results flagged for a closer look

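The paclitaxel effect differed between GLI2 KO and WT cells, by the edgeR test of that difference, for 13 members, all with a smaller effect in GLI2 KO cells. The differences, as the GLI2 KO effect minus the WT effect on the log2 scale, were -1.29 for H1-2, -2.95 for H2AC4, -1.60 for H2AC6 and -0.86 for H4C8. Among the H2B genes they were -1.78 for H2BC4, -2.07 for H2BC5, -0.89 for H2BC6, -1.13 for H2BC11, -1.96 for H2BC12, -2.22 for H2BC15, -1.69 for H2BC17, -1.55 for H2BC18 and -2.04 for H2BC21. Of all tested genes 6.93% were called in this direction. H2AC4 passed the filter on low counts only through the WT paclitaxel samples. Among the 22 members that passed in DMSO samples alone, 12 were called.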

How the results depend on the processing

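No member called in either fit turned direction under 20 alternatives for the group comparisons and 19 for the difference of effects, while 30 values of members called in neither changed sign under at least 1. Where they were tested, 21 of 24 calls for paclitaxel in GLI2 KO cells, 25 of 26 in WT cells, 6 of 8 for GLI2 KO against WT with DMSO, 15 of 19 with paclitaxel and 10 of 13 for the difference of effects held under each alternative run. The calls lost under some alternative were H2AC11, H2BC17 and H3C1 for paclitaxel in GLI2 KO cells, H3C1 in WT cells, H1-2 and H2AC15 for GLI2 KO against WT with DMSO, and H1-4, H2BC15, H3C3 and H4C3 with paclitaxel. Those for the difference were H2AC4 (6 alternatives), H2BC6 (2) and H2BC4 (1). H4C3 was called under 6 alternatives that include DESeq2 (adjusted p = 0.00935). The number called lower with paclitaxel in WT cells was 0, and 0 to 1 when a replicate was left out, and 1 without the 3 libraries that stood apart. The number called lower in GLI2 KO against WT cells with DMSO was 2, and 1 to 3 when a replicate was left out, and 1 in the fit on those groups alone. The number of members called was 18 to 26 for paclitaxel in GLI2 KO cells, 19 to 30 in WT cells, 6 to 8 for GLI2 KO against WT with DMSO, 15 to 20 with paclitaxel and 12 to 14 for the difference. Upper-quartile factors and library totals moved the median of all genes by 0.12 and 0.18 for paclitaxel in GLI2 KO cells and by 0.13 and 0.16 in WT cells. A minimum count of 50 left the fewest calls in WT cells because it tests fewer members. No paired analysis was possible because the titles give no replicate number that pairs samples. Depth limits the 21 members under 1 CPM, where 3 counts equal 0.0272 to 0.0384 CPM.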
